A study of Mus musculus with 6 samples.

Results

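The proteasome genes of injured mouse muscle were taken from a bulk RNA sequencing experiment as every row whose symbol began with Psma to Psmg followed by a digit, which gave 48 of 14016 rows. They comprised 7 core alpha genes, 7 constitutive core beta genes, 3 immunoproteasome genes, 6 cap ATPase genes, 14 cap non-ATPase genes, 10 activator, inhibitor and chaperone genes, and Psmc3ip, a meiotic recombination factor that matched by its symbol alone. Poly(A) RNA came from quadriceps muscle of 6 mice, 7 days after volumetric muscle loss, a surgical removal of a piece of muscle, and none of the mice had an implant. Of these, 3 were WT and 3 were labelled GATA-1 mutant, the eosinophil-deficient strain named ΔdblGATA in the study, in which a promoter element of Gata1 is deleted in every cell. The study's methods describe the WT mice as young adult female C57BL/6 with a defect in both legs, and describe the control injury as treated with saline.

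Every value below is a mean over all 6 mice, WT and mutant together. The values used were the authors' mean log2 CPM of each gene (CPM, the reads of a gene scaled to the size of the library). They carry no spread between mice, so that no 2 neighbouring genes in any order given here can be said to differ beyond replicate error. For the same reason no difference between the genotypes is given, and no test was made. As long transcripts collect more reads, levels were compared between genes only after subtracting the log2 length in kb of the longest coding transcript. Such a value is given as a level per kb, in log2 CPM per kb. The tissue label was checked against defining markers: all 6 skeletal muscle markers were listed, between 10.14 and 13.77 log2 CPM per kb. Macrophage markers were listed for 5 of 5 genes, between 2.18 and 8.72, and fibroblast markers for 3 of 3, between 2.95 and 9.10. Only 1 of 9 eosinophil markers was listed, Ear2, at 0.61. Genes of low CPM had been removed by the authors, so an unlisted marker gives no level. Of the 6 mice averaged, 3 were of the eosinophil-deficient strain.

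The proteasome degrades proteins that carry ubiquitin chains. Its 20S core is a barrel of 2 outer alpha rings, which gate the entrance, and 2 inner beta rings, which hold the proteolytic sites. The 19S cap binds ubiquitin, removes it, and unfolds the substrate with a ring of ATPases, and core and cap together form the 26S proteasome. In cells exposed to interferon gamma and in many leukocytes, 3 catalytic beta subunits are replaced by immunoproteasome subunits, which alters the peptides made for antigen presentation. In muscle the proteasome is known for the breakdown of contractile proteins during wasting and remodelling.

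The members sat high among the genes of the tissue. Their median level per kb was 5.78, against 2.28 for the 13945 genes with a known length. The median member lay at percentile 93.1 of all genes. Above the median of all genes were 45 of the 48, in the top 25% were 37, and in the top 10% were 31. Below that median were 3 members: Psmf1 at 2.09, Psme2b at 1.27 and Psmc3ip at 1.10. These counts depended on the division by length. The median transcript length used was 1435 bases in the members and 3139 in all genes. With no division by length, the median was 6.66 log2 CPM in the members and 4.04 in all genes with a length. On that scale Psmb8, Psmb9, Psmb10, Psmg1, Psmg3 and Psmg4 were also below the median of all genes, at percentiles between 28.6 and 49.5. Summed as 2 to the mean log2 value, the members made up 0.505% of the CPM of all genes with a symbol.

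**Figure D1:**
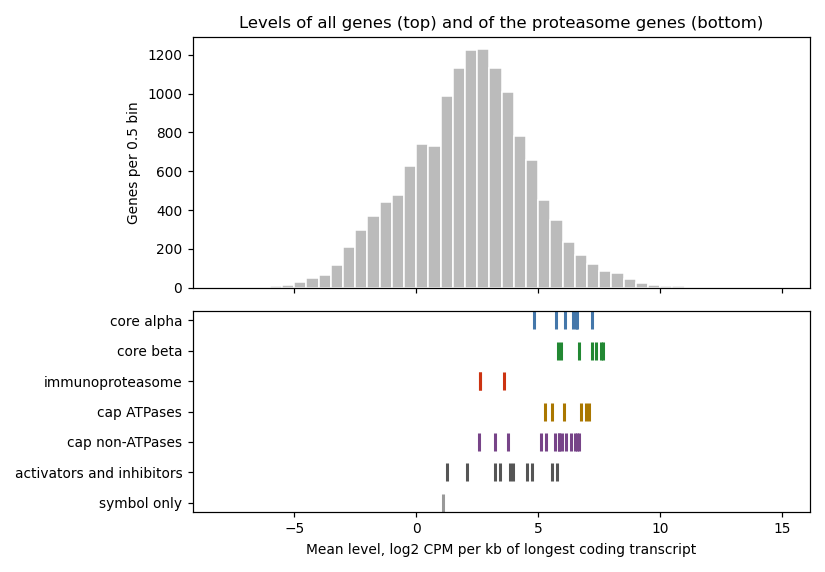
Distribution of mean levels in log2 CPM per kb of the longest coding transcript over 13945 genes (top, genes per bin of 0.5) and the 48 proteasome genes as 1 tick each, in rows by their place in the complex (bottom). The core and cap ticks sit in the upper tail between 4.84 and 7.64, except for 3 cap assembly factors, and the 3 immunoproteasome ticks lie at percentiles 55.7, 56.1 and 72.7.

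The 7 alpha genes encode the outer rings of the core, with 1 copy of each product per ring. Their median level per kb was 6.42, at percentile 95.7, and they spanned 5.23-fold. Psma6 was highest at 7.23 log2 CPM per kb. Psma4 was at 6.61, Psma7 at 6.55 and Psma1 at 6.42. Psma5 was at 6.11 and Psma3 at 5.74, and Psma2 was lowest at 4.84. The alpha genes were closer to each other when divided by coding length, where they spanned 0.83 on the log2 scale, from Psma2 and Psma5 at 6.89 to Psma6 at 7.72. Over the longest transcript they spanned 2.39. Psma2 and Psma3 have the longest transcripts of the group, of 2911 and 2846 bases, and the other 5 have between 1042 and 1239 bases. The low place of Psma3 thus rested on the transcript that was chosen, since by coding length it was at 7.64. Psma2 was at or near the lowest of the group by every length tried.

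The constitutive beta genes had the highest median of all parts, 7.21 log2 CPM per kb, at percentile 97.4. Per kb of the longest transcript, the 3 catalytic members were the 3 highest of all 48 genes. By coding length Psmb7 stayed highest at 8.13 and Psmb5, at 7.57, lay below Psmb4 at 7.79, Psma6 at 7.72 and Psma3 at 7.64. With no division by length, Psmd2 was highest at 8.10 log2 CPM. Per kb of the longest transcript, Psmb7, which carries the trypsin-like site, was at 7.64. Psmb6, the caspase-like subunit, was at 7.59. Psmb5, the chymotrypsin-like subunit and the main target of the drug bortezomib, was at 7.39. The non-catalytic beta genes followed, with Psmb4 at 7.21, Psmb3 at 6.68, Psmb2 at 5.95 and Psmb1 at 5.81. Psmb1 has a transcript of 1970 bases, the longest of the group, and per kb of coding length it was at 7.26, above Psmb3 at 6.99 and Psmb2 at 6.46. The nearest members to Psmb5 in level were Psma6, at -0.16 from it on the log2 scale, Psmb4 at -0.17 and Psmb6 at 0.20. Psmb6 had Psmb7 as its nearest member, 0.06 above it, and Psmb5 and Psma6 at -0.20 and -0.36. The same genes were nearest to Psmb7, with Psmb6 at -0.06, Psmb5 at -0.26 and Psma6 at -0.42.

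**Figure D2:**
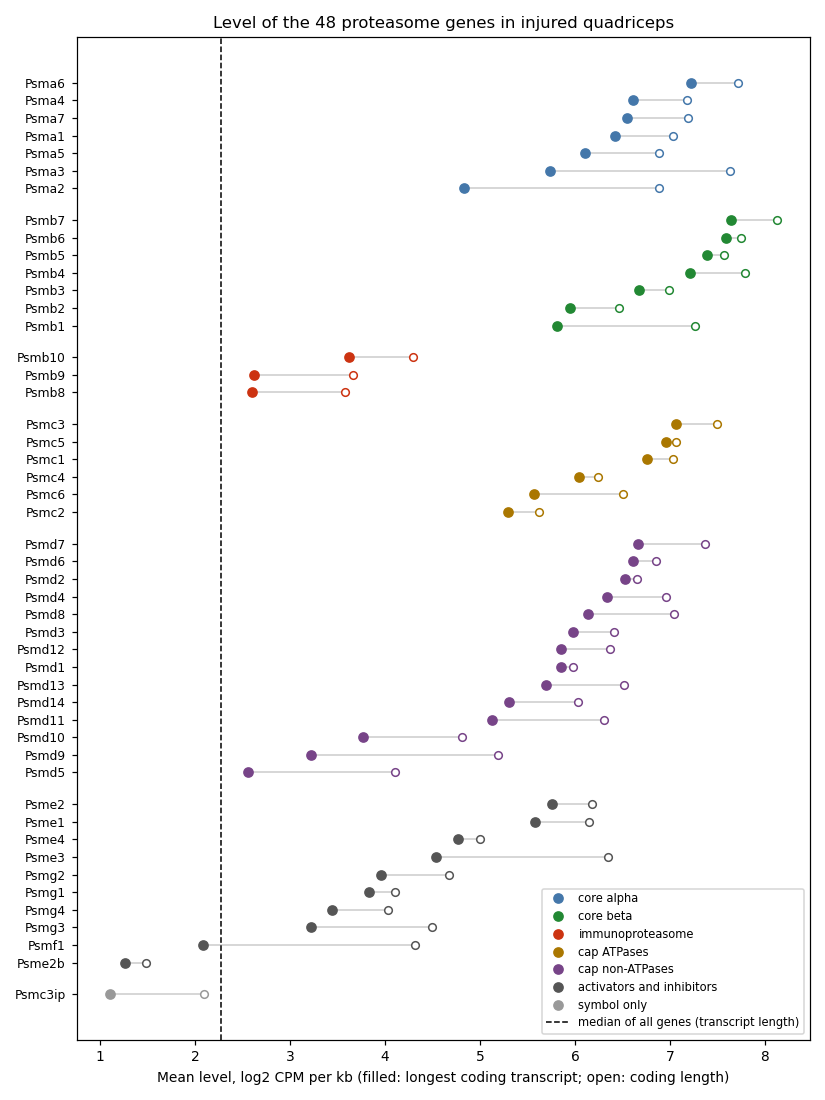
Mean level of each of the 48 genes in log2 CPM per kb (horizontal axis), grouped by part. Filled points divide by the longest coding transcript and open points by coding length, a grey line joins the 2 values of a gene, and the dashed line is the median of all genes, 2.28. The alpha genes lie within 0.83 of each other by coding length, and the immunoproteasome, assembly and inhibitor genes sit to the left of the core and cap.

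The immunoproteasome genes stood far below the subunits whose places they take. Psmb10, which replaces Psmb7, was at 3.62 log2 CPM per kb. Psmb9, which replaces Psmb6, was at 2.62, and Psmb8, which replaces Psmb5, was at 2.60. Per kb, all 3 were above the median of all genes, at percentiles 72.7, 56.1 and 55.7, and none was in the top 25%. With no division by length, Psmb10, Psmb9 and Psmb8 were at percentiles 49.5, 34.3 and 37.8, below the median of all genes on that scale. Psmb5 was 27.6-fold above Psmb8, Psmb6 was 31.2-fold above Psmb9 and Psmb7 was 16.3-fold above Psmb10. Within each pair, the immunoproteasome transcript made up 3.50%, 3.11% and 5.78% of the sum.

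The size of this gap depended on the length used, and its direction did not under the lengths tried. By coding length the folds were 15.9 for Psmb5 over Psmb8, 16.9 for Psmb6 over Psmb9 and 14.2 for Psmb7 over Psmb10. By the median coding transcript they were 16.8, 12.2 and 16.3. The genes nearest in level to Psmb8 and Psmb9 were each other, 0.02 apart, followed by Psmd5 and Psmf1. Psmb10 was nearest to Psmd10, at 0.15 from it, then to Psmg4 at -0.17 and Psmg1 at 0.22. In bulk muscle, few cells that hold a transcript and little of it in each cell cannot be told apart. Ptprc, the gene of the leukocyte antigen CD45, was listed at 2.42 log2 CPM per kb, close to Psmb8 and Psmb9. With no division by length Ptprc was at 4.76 log2 CPM, above Psmb8 at 3.30 and Psmb9 at 3.06, so that the closeness rested on the lengths used. Per kb, the 4 markers of T and NK lymphocytes were lower than Ptprc, between -2.36 and 0.09. The 5 macrophage markers lay between 2.18 and 8.72 per kb.

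**Figure D3:**
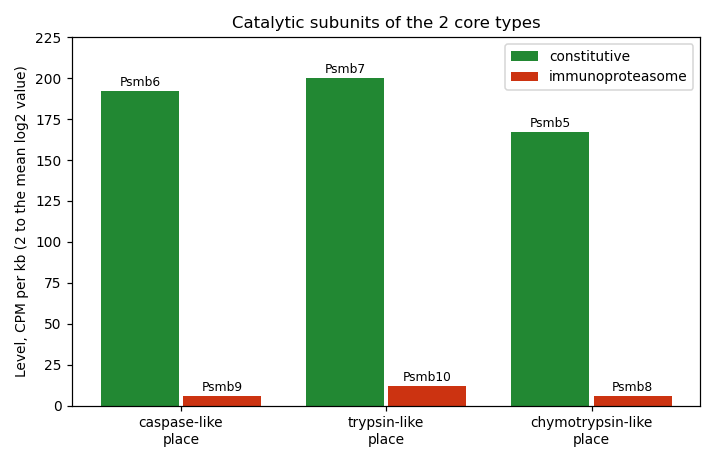
Level of the constitutive (green) and immunoproteasome (red) subunit at each catalytic place of the core, in CPM per kb on a linear axis from 0, computed as 2 to the authors' mean log2 value over 6 mice and drawn without error bars because no values per mouse were analysed. The constitutive bar is 31.2, 16.3 and 27.6 times the height of the immunoproteasome bar, from left to right.

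The genes that load immunoproteasome products onto MHC class I were all listed. Tap1 and Tap2 encode the peptide transporter of the endoplasmic reticulum and were at 2.62 and 3.13 log2 CPM per kb. Tapbp, which bridges that transporter and MHC class I, was at 3.03, and Erap1, which trims peptides, was at 2.26. Per kb, these 4 genes thus lay in the range of Psmb8 to Psmb10 or just under it. With no division by length Tap1, Tapbp, Erap1 and Tap2 were at 4.18, 4.57, 4.75 and 4.91 log2 CPM. All were above Psmb10 at 4.01, the highest immunoproteasome gene, so that the likeness rested on the lengths used. B2m, the light chain of MHC class I, was at 8.37 log2 CPM per kb, above every proteasome gene. Of the regulators, Irf1 was at 3.43, and Nlrc5, the transactivator of MHC class I genes, was at -1.42, at percentile 8.86.

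The 6 ATPases of the cap form the ring that unfolds substrates and opens the core. Their median level per kb was 6.40, and they spanned 3.40-fold. Psmc3 was highest at 7.06, with Psmc5 at 6.96 and Psmc1 at 6.76. Psmc4 was at 6.05, Psmc6 at 5.57 and Psmc2 was lowest at 5.30. Per kb, all 6 were in the top 10% of genes. With no division by length Psmc4 and Psmc2 were outside it, at percentiles 89.996 and 85.8. By coding length Psmc6 moved to 6.51, above Psmc4 at 6.25, and Psmc2 was the lowest at 5.62.

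Of the 14 genes with a Psmd symbol, 11 encode structural cap subunits and 3 encode assembly factors, and their levels separated along this line. The 11 subunits had a median of 5.98 log2 CPM per kb and lay between 5.13 and 6.66, a span of 2.88-fold. Psmd7, the partner of the deubiquitinase, was highest at 6.66, and Psmd14, the deubiquitinase that removes ubiquitin chains from the substrate, was at 5.30. The ubiquitin receptor Psmd4 was at 6.34. The large scaffold subunits Psmd1 and Psmd2 were at 5.86 and 6.53. The lid subunits Psmd6, Psmd3, Psmd12, Psmd13 and Psmd11 were at 6.61, 5.98, 5.86, 5.69 and 5.13, and Psmd8, a further lid subunit, was at 6.14.

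Psmd10, Psmd9 and Psmd5 are chaperones that hold ATPases during assembly of the base of the cap and leave before the 26S proteasome is complete. They were at 3.77, 3.23 and 2.56 log2 CPM per kb, below every structural subunit. By coding length the values were 4.81, 5.19 and 4.10, and Psmd1, the lowest structural cap subunit outside the ATPases on that scale, was at 5.98. The 2 cap subunits without a Psm symbol were in the range of the others: Adrm1, a ubiquitin receptor, at 5.97 and Sem1, a small lid subunit listed as Shfm1, at 5.54. Over the 31 listed Psm genes of the constitutive 26S proteasome, the median was 6.34 and the levels lay between 4.84 for Psma2 and 7.64 for Psmb7. Per kb, all 31 were in the top 25% of genes and 29 were in the top 10%. With no division by length all stayed in the top 25%. On that scale Psma2, Psma5, Psmb2, Psmb3, Psmc2, Psmc4 and Psmd14 were outside the top 10%, from percentile 80.8 for Psmb2 to 89.996 for Psmc4.

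The core assembly chaperones were lower than the subunits they assemble. Psmg2 was at 3.96 log2 CPM per kb, its partner Psmg1 at 3.83, and the second pair, Psmg4 and Psmg3, at 3.45 and 3.23. These 4 genes spanned 1.67-fold. Pomp, the maturation factor that leads the beta rings together, was at 4.50, and Akirin2, which takes assembled proteasomes into the nucleus, was at 5.08. The low place of Pomp rested on its transcript length of 3850 bases. With no division by length it was at 6.45 log2 CPM, above Psmb2, Psmb3, Psma2 and Psma5 at 5.73, 6.29, 6.38 and 6.42.

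The activators bind the ends of the core in place of the cap. Psme1 and Psme2, which form an interferon-inducible ring, were at 5.58 and 5.75 log2 CPM per kb, close to each other and above the immunoproteasome genes. Psme4, the large single-chain activator PA200, was at 4.77 and Psme3, the nuclear activator, at 4.54. By coding length Psme3 was at 6.35, above Psme2 at 6.18, since its transcript of 2664 bases is largely untranslated. Psmf1, named as an inhibitor of the core, was at 2.09, and at 4.32 by coding length. Psme2b, a copy of Psme2, was at 1.27.

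Of 14 names for proteasome assembly, docking and processing, which include Pomp and Akirin2, 13 were listed. Their median was 4.48 log2 CPM per kb. Paaf1 was not in the table. The shuttle factor Rad23b was at 5.32, and the ubiquilins Ubqln4, Ubqln1 and Ubqln2 at 4.59, 4.48 and 2.93. The deubiquitinases of the cap, Uchl5 and Usp14, were at 4.06 and 3.35, both under every structural subunit. The ligase Ube3c was at 3.27, and Ecpas, which tethers proteasomes to other structures and was listed as AI314180, was at 4.99. Zfand5, known to raise proteolysis in atrophying muscle, was at 4.47, and Midn, which delivers nuclear proteins without ubiquitin, was at 4.06. Nfe2l1, the transcription factor that raises subunit genes when proteasome activity drops, was at 6.89, at percentile 96.8. The enzymes that activate its product were lower, with Ngly1 at 3.85 and Ddi2 at 3.28, and the related factor Nfe2l2 was at 4.29.

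Some members share sequence with other genes, which bears on how reads could be assigned to them. Of each gene's 31-base words in its longest coding transcript, a median of 2.73% occurred in transcripts of other genes. Under 1% was shared by 21 of the 48 members, and over 20% by 14. The share was 78.4% for Psme2b and 66.2% for Psme2, mostly with one another. It was 74.0% for Psmb5, 66.8% for Psmb3, 66.5% for Psma5 and 46.4% for Psma4, and the leading partner of each of these 4 was outside the table. The levels of these genes are thus uncertain where reads could be split among copies. Psmb7 shared 33.5% of its words, and 30.97% occurred in transcripts of Nek6. Of the immunoproteasome genes, Psmb9 shared 13.8%, all of it in Tap1, Psmb8 shared 8.14%, and Psmb10 shared none.

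**Figure D4:**
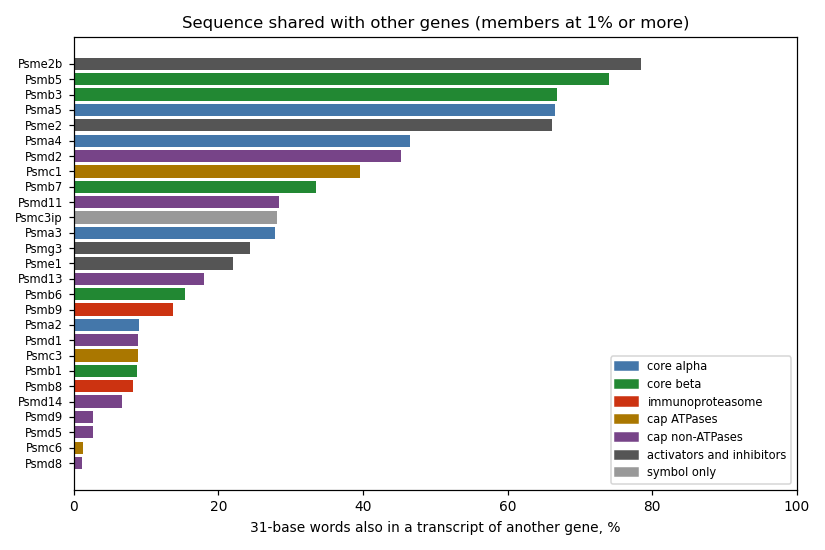
Percent of each member's 31-base words that also occur in a transcript of another gene, on either strand, for the 27 members at 1% or more, coloured by part. The 14 longest bars, from Psme2b at 78.4% to Psme1 at 22.1%, mark genes whose reads may be split, and the immunoproteasome bars are under 14%.

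Of the mouse genes in RefSeq that follow the same naming, 8 were not in the table: 6 pseudogenes and the coding genes Psma8 and Psmb11. Psma8 is the alpha subunit of germ cells and Psmb11 the beta subunit of the thymic cortex. The authors removed genes of low CPM before the table was made, so their absence gives no level.

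The promoters of the members were searched for motifs of factors known to act on proteasome or interferon-responsive genes. RefSeq windows of 300 bases (GRCm38.p6, 250 before to 50 after the start) were at hand for 41 of the 48 members, in 44 windows. A motif was counted on either strand. A match describes the letters of the window and not a bound site, and overlapping windows of 1 gene can count a match again. The 125 matches, of which 123 were distinct by position, held 2 overlapping pairs of different motifs.

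The motif of ETS factors, CCGGAAG, was in 15 of 41 members, or 36.6%. It was in 18.4% of the 10324 other genes of the table, in 9.93% of all genes with a window and in 8.86% of all windows. It was found in 6 of 12 cap non-ATPase, 3 of 5 cap ATPase and 4 of 9 activator, inhibitor and chaperone genes. Of the core, it was in 1 of 7 alpha, 0 of 4 beta and 0 of 3 immunoproteasome genes. The remaining gene with the motif was Psmc3ip, which is a member by its symbol alone. The other listed genes are the closer background, because their windows had a median GC content of 60.3%, against 58.2% in the members and 52.7% in all windows. The stretches of the 7 cap genes in which the motif began within 50 bases before the start are shown to set their flanks side by side, with the motif in capitals (CTTCCGG is the same motif on the other strand) and 15 bases on each side.
Psmc1, chr12:100110159-100110195, plus strand: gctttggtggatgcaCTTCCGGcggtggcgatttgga
Psmc2, chr5:21786708-21786744, plus strand: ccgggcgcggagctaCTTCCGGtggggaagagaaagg
Psmd2, chr16:20651611-20651647, plus strand: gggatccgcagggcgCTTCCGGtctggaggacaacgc
Psmd6, chr14:14120969-14121005, minus strand: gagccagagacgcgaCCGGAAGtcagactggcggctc
Psmd11, chr11:80428589-80428625, plus strand: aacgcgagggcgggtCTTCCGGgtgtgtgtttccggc
Psmd12, chr11:107479496-107479532, plus strand: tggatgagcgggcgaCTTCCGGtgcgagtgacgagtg
Psmd13, chr7:140882373-140882409, plus strand: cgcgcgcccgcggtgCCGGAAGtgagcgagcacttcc
The first base of the motif lay at -28, -24, -26, -45, -11, -17 and -6 from the start, in this order.

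The core letters of the antioxidant response element, TGACNNNGC, to which the products of Nfe2l1 and Nfe2l2 bind, were in 6 of 41 members, or 14.6%. The share was 16.8% of the other listed genes, 13.99% of all genes and 12.4% of all windows, so that the members were near the background. The 6 genes were Psmb5, Psmb6, Psmc6, Psmd12, Psmd9 and Psme4. The stretches of the 2 catalytic genes are shown with the motif in capitals, since both encode constitutive catalytic subunits.
Psmb5, chr14:54618019-54618057, minus strand: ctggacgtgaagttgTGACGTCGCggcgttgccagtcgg
Psmb6, chr11:70525333-70525371, plus strand: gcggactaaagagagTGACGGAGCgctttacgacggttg
The motif began 47 bases before the start of Psmb5 and 9 bases before that of Psmb6, and Psmb7 had no window.

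Of the motifs of the interferon response, 1 of those searched had a match in an immunoproteasome gene. The letters GAAANNGAA, part of the element bound by interferon regulatory factors, were in 7 of 41 members, or 17.1%, against 8.82% of the other listed genes, 9.76% of all genes and 8.56% of all windows. The 7 were Psmb3, Psmb4, Psmc2, Psmd4, Psmd9, Psme1 and Psmg4, and none was an immunoproteasome gene. In the 100 bases before the start alone, the motif was in 1 member, or 2.44%, against 2.55% of the other listed genes. The STAT letters TTCNNNGAA were in 3 members, or 7.32%, against 8.37%, 9.55% and 8.30%. These were Psmb8, Psmd2 and Psmg1. The stretch of Psmb8, 97 bases before its start, is shown as the one such match in an immunoproteasome gene.
Psmb8, chr17:34198083-34198121, plus strand: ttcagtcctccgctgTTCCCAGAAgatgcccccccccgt
The absence of a match says that the letters are not in the window searched.

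Of the remaining motifs, the nuclear respiratory factor letters GCGCANGC were in 9 members, or 22.0%, against 21.2% of the other listed genes, 11.2% of all genes and 9.95% of all windows. The CCAAT box was in 14, or 34.1%, against 42.4%, 41.1% and 37.4%. It was the one of the 7 motifs most often met in the alpha genes, in 5 of 7. The Sp letters GGGCGG were in 23, or 56.1%, against 66.9%, 38.2% and 35.7%. By part they were in 10 of 12 cap non-ATPase genes and in 1 of 4 beta genes.

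**Figure D5:**
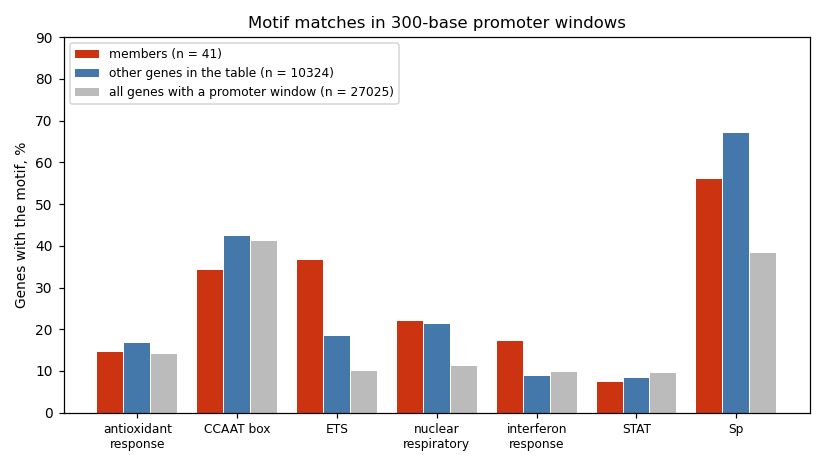
Percent of genes with each of 7 motifs in a promoter window of 300 bases, for 41 members (red), 10324 other genes of the table (blue) and all 27025 genes with a window (grey). The red bar is above both others for the ETS motif, at 36.6%, and for the interferon response motif, at 17.1%, and near or below the blue bar for the other 5.

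The windows of 6 of 41 members, or 14.6%, overlapped the window of a gene on the other strand, against 17.4% of the other listed genes and 11.9% of all genes. These pairs were Psma7 with Ss18l1, Psmd13 with the mitochondrial deacetylase gene Sirt3, Psmc5 with Ftsj3, Psma2 with Mrpl32, Psmd10 with Atg4a, and Psmb9 with Tap1. The windows of Psmb9 and Tap1 overlapped by 275 of 300 bases, and the levels of the 2 genes were 2.62 log2 CPM per kb each. With no division by length Tap1 was at 4.18 and Psmb9 at 3.06 log2 CPM, so that the likeness rested on the lengths used.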

How the data were processed

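RNA was sequenced from 6 samples of mouse quadriceps, 3 per genotype. The authors pseudoaligned reads with kallisto, summed transcripts to genes with ensembldb, computed CPM with edgeR, filtered genes of low CPM, and log-transformed and TMM-normalized the values before limma. The labels name GRCm39 (mm39), and the transcript index was not given in the sources used here. The table used was deposited as log2 values of 1 comparison. Its mean log2 CPM over the samples was used. Its other 5 columns hold the authors' fold change between the genotypes, t statistic, p-value, adjusted p-value and log-odds. They were not used, since they hold the authors' own findings. The planned test between genotypes needed values per mouse and was not run. Depth per sample is unknown, so counting error and its limits cannot be given.

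Of 14016 rows, 1 had no symbol. Lengths came from GENCODE M21 (GRCm38), matched for 13458 genes by symbol and 487 by an older symbol (99.5%). Medians, percentiles, shared words and motif counts were computed in Python 3.11.15 with pandas 2.3.3 and numpy 2.4.6, and the code was tested on simulated data. Promoter windows and their coordinates are RefSeq's on GRCm38.p6, 1-based. Every member is named, with the highest and lowest of each part, the 3 nearest members of each catalytic gene, and genes of lists written out beforehand, of which some are not reported here. The members and lists were chosen with earlier results of these data known.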

Additional observations from a re-analysis of the deposited data

How the results depend on the processing

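With no spread between mice, a value counted as moved when it changed by over 1.5-fold, a percentile by over 5 points, or a motif share to outside its exact 95% binomial interval. Of 71 alternatives 50 stayed within these limits, and 21 moved. Both alternative motif searches were narrower than the main one, so that a motif share could only stay or fall. The interval of a share does not compare it with other genes. The sign changed once, with levels divided by coding length: the cap non-ATPase median was 0.08 from the median of all members and became -0.04. With levels divided by coding length, the range on the log2 scale was 0.83 in the alpha genes and 3.27 in the cap non-ATPases, Psmb8 minus Psmb5 was -3.99 and Psmb9 minus Psmb6 was -4.08. With the median coding transcript, these differences were -4.07 and -3.61, the immunoproteasome median was -2.57 from the median of all members, and the ranges were 0.42 in the immunoproteasome, 5.31 in the cap non-ATPases and 6.81 in the activators and inhibitors. With no division by length, the differences were -3.93 and -4.20, the beta median was 0.57 above and the activator median -2.48 from the median of all members, and the ranges were 0.91 in the alpha genes and 6.46 in the activators and inhibitors. Without members that share over 20% of their words, the beta median was 0.83 above the median of the members. With 1 more letter in the motif, the share of members was 4.88% for the antioxidant response element, 22.0% for ETS and 22.0% for Sp, against 3.24%, 8.22% and 47.0% of the other listed genes. For the interferon response motif with 1 more letter it was 12.2%, against 3.74% of the other listed genes. In the 100 bases before the start alone, the interferon response motif was in 2.44% of members and 2.55% of the other listed genes, and ETS in 24.4% and 9.91%. The ranges by other lengths, the catalytic pairs by the median coding transcript, and the settings that leave out members by shared sequence or by symbol were chosen after seeing the data. The causes of these moves were not tested, apart from the lengths themselves.

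No paired analysis was possible because the values used are means over all 6 mice. The replicate block, the fits leaving out each mouse, the other normalizations and the other filter and pseudocount for the genotype difference were not run for the same reason. Which of the levels differ between mice or genotypes is therefore not given, and depth limits cannot be set.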
